A study of Homo sapiens with 6 samples.

Results

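The transcripts of the TGF-beta, activin and BMP pathway were compared between PC3 cells with high and with low surface NRP2. A list of 40 pathway genes, chosen by symbol, gave 39 rows among the 27958 genes of the deposited table, and BMP4 is not analysed here. PC3 is a human cell line from a bone metastasis of prostate cancer. NRP2, neuropilin-2, is a transmembrane protein that helps receptors of VEGF and of semaphorins to bind their ligands, and neuropilins have also been described as binding TGF-beta. The tested cells were PC3 stained with an antibody to NRP2 and sorted by flow cytometry for high NRP2, and the cells they were set against were PC3 sorted in the same way for low NRP2. No other allele, agent or treatment is named in the labels. Both populations were 1 unmodified cell line, kept in culture for up to 2 weeks after the sort, with RNA taken at several passages, and which library came from which passage is not given in the sources used here. There were 3 libraries of bulk RNA in each group, named by the S numbers of the table: S38, S39 and S40 for NRP2-high, and S35, S36 and S37 for NRP2-low. Values for the libraries of a group follow that order throughout. TPM corrects read counts for gene length and for the total of the library. Levels of different genes set side by side therefore depend on the length given for each gene.

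Ligands of this family are secreted dimers that assemble a pair of type II and a pair of type I serine/threonine kinase receptors at the cell surface. TGF-beta and activin receptors mainly phosphorylate SMAD2 and SMAD3, BMP receptors mainly SMAD1, SMAD5 and SMAD9, and both groups of SMADs enter the nucleus with SMAD4. In prostate epithelium TGF-beta is known for restraining growth, and in advanced prostate cancer for its links to motility and bone metastasis.

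Depth was 21673710 to 23130636 reads for the NRP2-high libraries, and 17551302 to 30726744 reads for the NRP2-low libraries. The sorted gene NRP2 had 48.1, 42.5 and 16.6 TPM in the NRP2-high libraries, against 7.55, 5.10 and 2.71 TPM in NRP2-low libraries, so the groups did not overlap. The keratin genes KRT8 and KRT18, VIM and CD44 were at 62.9 TPM or more in every library. The leukocyte, endothelial and stromal markers that had values were at 0.482 TPM or less in every library, except the stromal gene LUM, at 1.46, 2.30 and 0.541 TPM in NRP2-high libraries, against 0, 0.0570 and 0 TPM in NRP2-low libraries. The leukocyte marker CD3E was looked up but had no values. Mitochondrially encoded genes took 11.1% to 18.7% of the TPM in NRP2-high libraries, against 14.3% and 15.1% in S35 and S36 and 31.0% in S37 of the NRP2-low libraries.

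No member of the pathway passed the test. Of the 39 rows, 31 had at least 1 TPM in at least 3 libraries and were tested, and 0 of these 31 rose and 0 fell in NRP2-high cells at a limma adjusted p under 0.05, against 0.348% of all 15214 tested genes called higher, 0.486% called lower and 0.835% called in either direction. At an unadjusted p under 0.05 there were 2 members, FSTL3 and TGFB2, both higher in NRP2-high, against 4.73% of all tested genes higher and 7% in either direction, and limma-voom on reads recovered from the table also called 0, against 1.31% of all genes. The log2 fold change, NRP2-high minus NRP2-low on the log2(TPM + 1) scale, was above 0 for 25 of the 31, beside 66.3% of all tested genes. Its median was 0.24 over the members and 0.10 over all genes. Without library S37 the members' median was 0.0566 with 18 of 31 above 0, beside 49.1% of all genes. For 21 of the 31 the 95% interval lay wholly between -1 and 1, and for the other 10 it reached past one or both of these bounds, so a missed threshold does not show that levels were alike. The log2(TPM + 1) scale understates changes of low genes, so for these genes the interval does not bound the change in TPM.

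**Figure D1:**
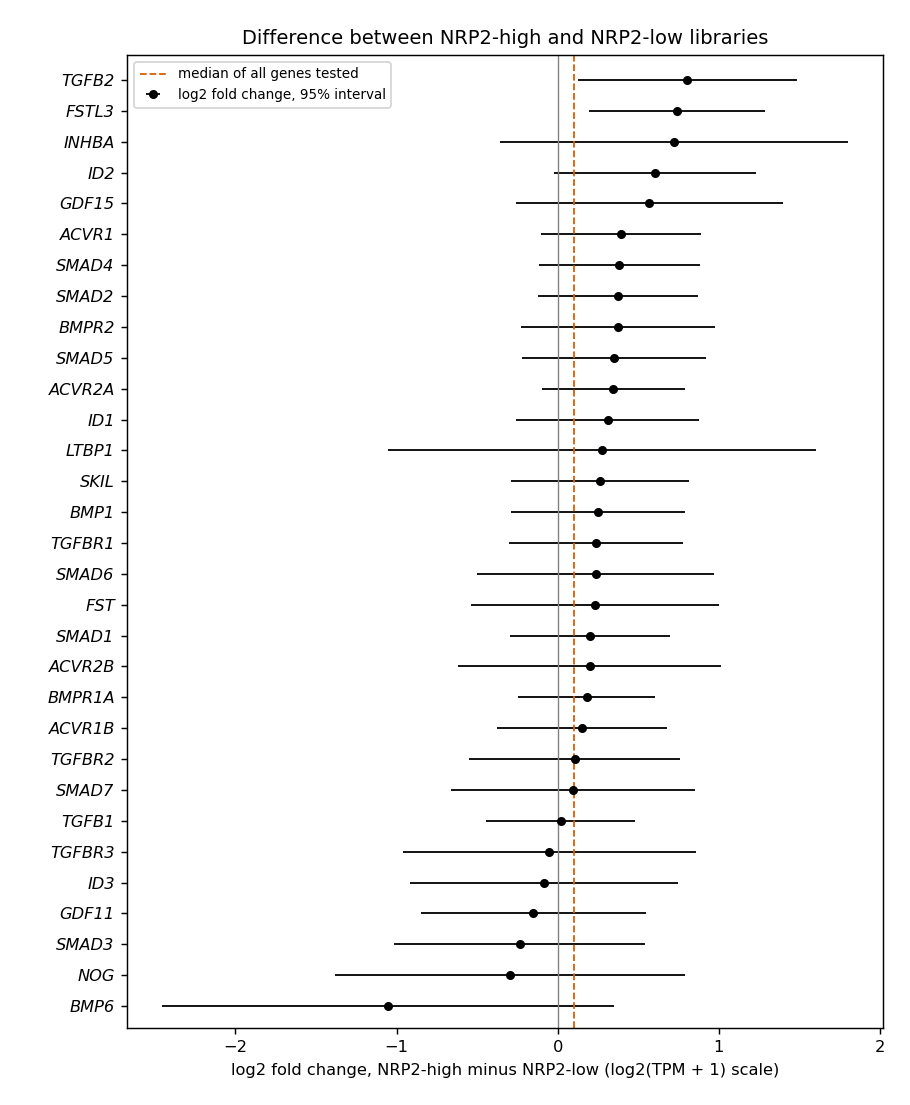
The log2 fold change of each of the 31 tested pathway genes, NRP2-high minus NRP2-low on the log2(TPM + 1) scale, is drawn as a point with its 95% interval, with a dashed line at the median of all tested genes (0.10). Intervals of 2 genes, TGFB2 and FSTL3, lie above 0, and BMP6 has the lowest point with the widest interval.

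In the TPM as deposited, groups with NRP2-high wholly above NRP2-low were about as common among the members as elsewhere. In 3 of the 31 tested members, TGFB2, FSTL3 and ACVR2A, every NRP2-high library lay above every NRP2-low library (9.68%), against 8.83% of all tested genes. In 0 members did every NRP2-high library lie below every NRP2-low library, against 3.14% of all tested genes. Under median log ratio scaling the count above was 5 of the 31, with SMAD2 and SMAD4 added, a larger share than the 7.62% of all tested genes. The count below stayed at 0, against 6.03%. Of the 8 members under the filter, BMPR1B and BMP2 also had groups that did not overlap, on few reads. The share among all genes under the filter was not computed. For BMP2 the closest libraries were S40 of NRP2-high at 0.542 TPM and S36 of NRP2-low at 0.523 TPM. Its reads tied at 11 in S38, S39 and S36, so the groups parted only after scaling for depth.

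The spread between libraries of 1 group had a shared form. S40 was the lowest NRP2-high library for 22 of the 31 tested members (71.0%), beside 45.5% of all tested genes, and S37 the lowest NRP2-low library for 28 of 31 (90.3%), beside 67.8%. With TPM rescaled to the genes that are not mitochondrially encoded, S37 was still the lowest for 27 of 31 members (87.1%), beside 46.4% of all genes. Both held at once for 21 of the 31 members (67.7%), beside 37.5% of all genes. The 3 members for which S37 was not the lowest of its group were FST, ID2 and ID3. The 6 members that were highest of all 6 libraries in S40 were TGFB2, FSTL3, SMAD7, ID1, ID2 and ID3 (19.4%), beside 18.7% of all tested genes. The part of library differences in the group comparisons was not tested beyond leaving out each library in turn.

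**Figure D2:**
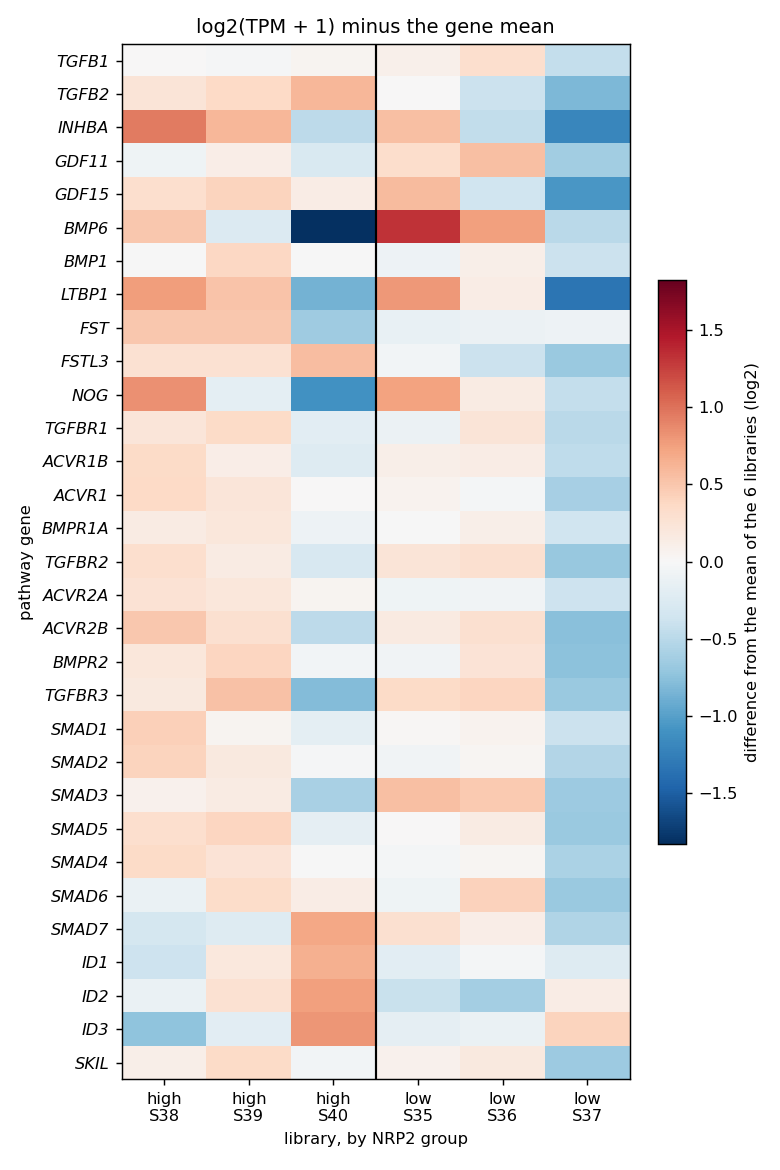
Each cell gives log2(TPM + 1) of a tested pathway gene in a library minus the mean of that gene over the 6 libraries, with the NRP2-high libraries left of the line and the NRP2-low libraries right of it. Red is above and blue below the mean. The column of S37 is blue for most genes, and the column of S40 is blue for INHBA, BMP6, LTBP1 and NOG and red for SMAD7, ID1, ID2 and ID3.

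The genomic stretches just before 4 of the genes, picked after their values were seen, are printed here. TGFB2, FSTL3 and BMPR1B are among the members whose groups did not overlap, and ID1 is the most abundant SMAD target among the members. ACVR2A and BMP2 also had groups that did not overlap, and their stretches are not printed. The printed stretches come from RefSeq windows (GRCh38.p14, plus strand, 250 bases before the RefSeq start), ended before the first exon that the annotation gives the gene. A window was matched for 34 of the 39 members. The stretches are chr1:218345086-218345335 for TGFB2, chr19:676142-676364 for FSTL3, chr4:94757705-94757954 for BMPR1B and chr20:31605039-31605282 for ID1. Capitals mark the letters CAGAC, part of many SMAD-binding sites, GGCGCC, a GC-rich form, and the AP-1 letters TGANTCA, each searched on both strands, and no marked stretch overlapped another.
TGFB2: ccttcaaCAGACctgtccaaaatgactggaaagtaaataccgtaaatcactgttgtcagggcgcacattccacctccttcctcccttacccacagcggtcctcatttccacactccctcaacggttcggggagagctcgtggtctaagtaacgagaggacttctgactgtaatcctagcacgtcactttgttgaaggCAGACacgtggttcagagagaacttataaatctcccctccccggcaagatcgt
FSTL3: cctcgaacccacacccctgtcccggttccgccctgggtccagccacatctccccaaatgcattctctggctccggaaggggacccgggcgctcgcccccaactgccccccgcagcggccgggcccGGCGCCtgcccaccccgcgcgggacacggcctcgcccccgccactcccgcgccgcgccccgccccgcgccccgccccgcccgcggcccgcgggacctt
BMPR1B: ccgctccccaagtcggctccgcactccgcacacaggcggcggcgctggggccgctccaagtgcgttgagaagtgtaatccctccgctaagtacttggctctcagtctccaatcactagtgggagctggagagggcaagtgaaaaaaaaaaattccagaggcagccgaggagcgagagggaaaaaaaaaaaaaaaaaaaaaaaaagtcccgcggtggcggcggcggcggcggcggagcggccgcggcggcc
ID1: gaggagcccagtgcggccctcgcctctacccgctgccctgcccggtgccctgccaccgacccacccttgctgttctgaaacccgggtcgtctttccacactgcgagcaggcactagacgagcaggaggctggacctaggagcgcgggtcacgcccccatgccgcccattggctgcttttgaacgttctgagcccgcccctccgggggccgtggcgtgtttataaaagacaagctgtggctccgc
The TGFB2 stretch holds CAGAC 2 times, letters found in 38.0% of the 34943 RefSeq windows of that length, and the FSTL3 stretch holds GGCGCC 1 time, found in 14.3% of windows of its length. The other letters searched were not in these windows. For TGFB2 the RefSeq start lies 899 bases before the start given in the deposited table, and an exon of another annotated gene reaches into the stretch. G and C make up 80.3% of the FSTL3 stretch and 50.4% of the TGFB2 stretch.

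Among the TGF-beta ligands 1 was abundant. TGFB1, the main isoform of most epithelial tumour lines, was at 91.5, 89.5 and 93.9 TPM in the NRP2-high libraries, against 97.6, 113 and 67.4 TPM in the NRP2-low libraries. The NRP2-high libraries lay within the range of the NRP2-low libraries (log2 fold change 0.02, SE 0.20, 95% interval -0.45 to 0.48, limma adjusted p = 0.993). An exon of HNRNPUL1 on the opposite strand, a gene at 143 to 248 TPM, shares up to 118 bases with an exon of TGFB1, and the strand of the libraries is not given in the sources used here. TGFB2, the isoform known for roles in the heart, eye and in epithelial to mesenchymal change, was at 1.42, 1.66 and 2.15 TPM in the NRP2-high libraries, against 1.07, 0.565 and 0.174 TPM in the NRP2-low libraries, with every NRP2-high library above the NRP2-low ones. It rested on 155 reads in NRP2-high libraries, against 65 in NRP2-low ones (log2 fold change 0.81, SE 0.30, 95% interval 0.13 to 1.48, limma adjusted p = 0.559). With a pseudocount of 0.1 its log2 fold change was 1.61 and in limma-voom 1.59, and neither was past the threshold (adjusted p 0.293 to 0.9998 over the settings in which TGFB2 was tested). TGFB3 was below the filter at 0.791 ± 0.319 TPM in NRP2-high libraries, against 0.621 ± 0.120 TPM in NRP2-low ones (SD, n = 3 each).

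INHBA, which encodes the subunit of activin A, was the most abundant ligand of the family in the libraries with its highest levels. It was at 159, 125 and 58.5 TPM in the NRP2-high libraries, against 120.3, 59.5 and 35.3 TPM in the NRP2-low libraries. S38, S39 and S35 were high and S37 was lowest, so the groups overlapped (log2 fold change 0.72, SE 0.47, 95% interval -0.36 to 1.80, limma adjusted p = 0.873). Leaving out S37 gave 0.31 and leaving out S35 gave 1.18. INHBB, which encodes the activin B subunit, had 2 reads in NRP2-high libraries, against 0 in NRP2-low ones, and INHBE, a subunit gene mostly of liver, had 7 reads in NRP2-high libraries, against 3 in NRP2-low ones.

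Of the growth and differentiation factors, GDF15, a stress-induced distant relative that signals through GFRAL in the brainstem, was at 30.7, 32.8 and 27.0 TPM in the NRP2-high libraries, against 37.1, 18.9 and 11.2 TPM in the NRP2-low libraries. The NRP2-high libraries lay close together, and the NRP2-low libraries lay on both sides of them (log2 fold change 0.57, SE 0.36, 95% interval -0.26 to 1.40, limma adjusted p = 0.873). This difference was 0.17 without S37 and 0.999 without S35. GDF11, which acts through activin type II receptors, was at 11.7, 13.6 and 10.1 TPM in the NRP2-high libraries, against 15.8, 18.5 and 7.62 TPM in the NRP2-low libraries (log2 fold change -0.15, SE 0.31, 95% interval -0.85 to 0.55, limma adjusted p = 0.939). Its groups overlapped, and 1 exon of SARNP on the opposite strand, at 1.34 to 1.63 TPM, shares up to 378 bases with it.

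Of the BMP ligands among the members BMP6 alone was above the filter, and it had the lowest log2 fold change of all 31 members. BMP6, known for bone formation and for inducing hepcidin in the liver, was at 18.6, 10.7 and 2.93 TPM in the NRP2-high libraries, against 33.9, 22.4 and 8.90 TPM in the NRP2-low libraries. S40 was far below the other NRP2-high libraries and S37 below the other NRP2-low libraries, and the groups overlapped (log2 fold change -1.05, SE 0.62, 95% interval -2.46 to 0.35, limma adjusted p = 0.864). The log2 fold change ran from -1.56 without S37 or S38 to -0.40 without S40, and BMP6 was not past the threshold in any setting (adjusted p 0.584 to 0.9998). BMP2, a bone-inducing ligand, had 11, 11 and 12 reads in NRP2-high libraries, against 6, 11 and 5 reads in NRP2-low ones, that is 0.559, 0.556 and 0.542 TPM against 0.213, 0.523 and 0.249 TPM. BMP7, known in kidney and prostate, had 1 read in NRP2-high libraries, against 0 in NRP2-low ones. BMP1 is no ligand but a metalloprotease that cleaves procollagens and the BMP antagonist chordin, and it was at 4.46 ± 0.883 TPM in NRP2-high libraries, against 3.60 ± 0.788 TPM in NRP2-low ones (SD, n = 3 each; log2 fold change 0.25, limma adjusted p = 0.895, and a difference of 0.12 without S37).

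The latency proteins and secreted antagonists set how much ligand reaches its receptors. LTBP1, which binds latent TGF-beta to the matrix, was at 10.7, 8.89 and 2.80 TPM in the NRP2-high libraries, against 11.0, 6.61 and 1.74 TPM in the NRP2-low libraries. S40 and S37 stood below the other libraries of their groups (log2 fold change 0.27, SE 0.58, 95% interval -1.05 to 1.60, limma adjusted p = 0.944). Its difference was 0.78 without S40, -0.04 without S38 and -0.33 without S37. LTBP3, a related protein, was below the filter at 0.892 ± 0.279 TPM in NRP2-high libraries, against 0.751 ± 0.321 TPM in NRP2-low ones (SD, n = 3 each).

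FSTL3, follistatin-like 3, a secreted protein that binds and blocks activins and myostatin, had the lowest adjusted p of the members. It was at 5.01, 4.98 and 6.31 TPM in the NRP2-high libraries, against 3.80, 2.79 and 2.10 TPM in the NRP2-low libraries, and every NRP2-high library lay above the highest NRP2-low library. The means were 5.44 ± 0.759 TPM in NRP2-high libraries, against 2.90 ± 0.850 TPM in NRP2-low ones (SD, n = 3 each), with a log2 fold change 0.74, SE 0.24, 95% interval 0.19 to 1.29, limma adjusted p = 0.448. These values rest on 287 reads in NRP2-high libraries, against 177 in NRP2-low ones. The log2 fold change was 0.59 to 0.90 with a library left out, 0.66 under median log ratio scaling and 0.81 in limma-voom, and the adjusted p lay between 0.334 and 0.966 over all settings in which FSTL3 was tested. Before adjustment the limma p of FSTL3 was 0.0139, and the difference did not pass the adjustment over all genes.

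FST, follistatin itself, was at 3.51, 3.49 and 1.04 TPM in the NRP2-high libraries, against 1.90, 1.96 and 1.99 TPM in the NRP2-low libraries. S40 was lowest and the other NRP2-high libraries were highest, so the groups overlapped (log2 fold change 0.23, limma adjusted p = 0.918), and the log2 fold change was 0.61 without S40 and 0.038 without S38. NOG, noggin, which traps BMPs, was at 22.2, 10.6 and 5.07 TPM in the NRP2-high libraries, against 20.8, 13.4 and 8.62 TPM in the NRP2-low libraries. The spread within each group was wider than the difference of the means (log2 fold change -0.29, SE 0.48, 95% interval -1.38 to 0.79, limma adjusted p = 0.921), and the log2 fold change was 0.18 without S40. GREM1, a BMP antagonist of stromal cells, had 0 reads in NRP2-high libraries, against 1 in NRP2-low ones.

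**Figure D3:**
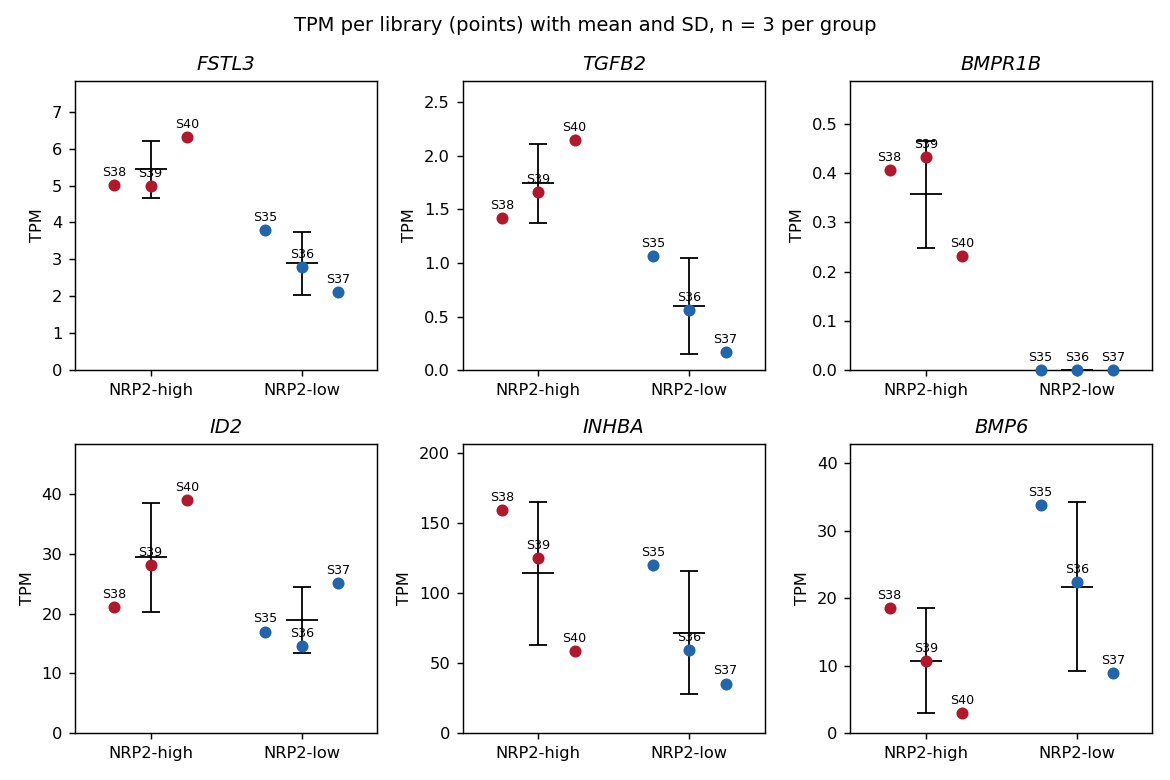
TPM of 6 pathway genes is drawn per library, with a horizontal bar for the mean and error bars of 1 SD (n = 3 per group). FSTL3, TGFB2 and BMPR1B have NRP2-high points above all NRP2-low points, with BMPR1B at 0 in NRP2-low, and the points of ID2, INHBA and BMP6 overlap between the groups.

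Both groups held type I receptors, and of the 4 tested none passed, with log2 fold changes of 0.15 to 0.39. TGFBR1, the type I receptor for TGF-beta, was at 24.9, 27.3 and 18.4 TPM in the NRP2-high libraries, against 19.6, 25.3 and 14.9 TPM in the NRP2-low libraries (log2 fold change 0.24, limma adjusted p = 0.895, and a difference of 0.057 without S37). ACVR1B, the activin type I receptor, was at 31.1, 26.5 and 20.4 TPM in the NRP2-high libraries, against 26.1, 26.6 and 17.4 TPM in the NRP2-low libraries (log2 fold change 0.15, and -0.04 without S37). These NRP2-high and NRP2-low values overlapped. ACVR1, a BMP type I receptor also known as ALK2, was at 36.6, 33.1 and 28.6 TPM in the NRP2-high libraries, against 29.6, 27.6 and 18.2 TPM in the NRP2-low libraries (log2 fold change 0.39, SE 0.22, 95% interval -0.10 to 0.89, limma adjusted p = 0.857), and its difference was 0.18 without S37. BMPR1A, the more widely expressed BMP type I receptor, was at 34.3, 35.9 and 29.0 TPM in the NRP2-high libraries, against 30.7, 33.3 and 23.9 TPM in the NRP2-low libraries (log2 fold change 0.18, 95% interval -0.24 to 0.60, and 0.043 without S37). For ACVR1 and BMPR1A the lowest NRP2-high library, S40, lay below the highest NRP2-low library.

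BMPR1B, the other BMP type I receptor, known in cartilage and in prostate and ovarian tissue, was read only in NRP2-high libraries. It had 14, 15 and 9 reads in NRP2-high libraries and 0 reads in each NRP2-low library, that is 0.406, 0.433 and 0.232 TPM against 0 TPM. Relative to the depth of the groups, the pooled NRP2-high reads were 13.5-fold a floor of 3 reads set over the NRP2-low group. The floor covers counting error of the NRP2-low group alone. Counting error of the NRP2-high reads and the spread between libraries were left out, so 13.5 is no lower bound. BMPR1B was under the filter, and without a filter its limma adjusted p was 0.158 over 27958 genes, so the difference was not past the threshold. It rests on 38 reads in all, against 6431 reads of BMPR1A in the same NRP2-high libraries.

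The type II receptors gave log2 fold changes of 0.10 to 0.37 for 4 tested genes. TGFBR2, the type II receptor for TGF-beta, was the most abundant receptor, at 83.3, 74.8 and 54.5 TPM in the NRP2-high libraries, against 79.5, 83.0 and 41.3 TPM in the NRP2-low libraries. The groups overlapped (log2 fold change 0.10, SE 0.29, 95% interval -0.55 to 0.76, limma adjusted p = 0.959), and the sign turned under median log ratio scaling. BMPR2, the BMP type II receptor, was at 41.7, 48.0 and 35.1 TPM in the NRP2-high libraries, against 34.5, 43.3 and 21.1 TPM in the NRP2-low libraries (log2 fold change 0.37, SE 0.26, 95% interval -0.23 to 0.97, limma adjusted p = 0.881), and its difference was 0.091 without S37. ACVR2A, the activin type II receptor shared by several BMPs, was at 8.94, 8.60 and 7.62 TPM in the NRP2-high libraries, against 6.84, 6.98 and 5.40 TPM in the NRP2-low libraries. All NRP2-high values lay above all NRP2-low values for ACVR2A (log2 fold change 0.35, SE 0.19, 95% interval -0.10 to 0.79, limma adjusted p = 0.863). An exon of ORC4 on the opposite strand, a gene at 24.9 to 31.5 TPM, shares up to 430 bases with ACVR2A. ACVR2B, its close relative, was at 7.41, 6.33 and 3.29 TPM in the NRP2-high libraries, against 5.72, 6.38 and 2.54 TPM in the NRP2-low libraries (log2 fold change 0.20, and -0.13 without S37). TGFBR3, betaglycan, the co-receptor that presents TGF-beta and inhibin, was at 9.64, 12.6 and 4.47 TPM in the NRP2-high libraries, against 11.1, 11.4 and 4.92 TPM in the NRP2-low libraries (log2 fold change -0.05, SE 0.40, 95% interval -0.96 to 0.86, limma adjusted p = 0.989), and S40 and S37 were about equally low.

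**Figure D4:**
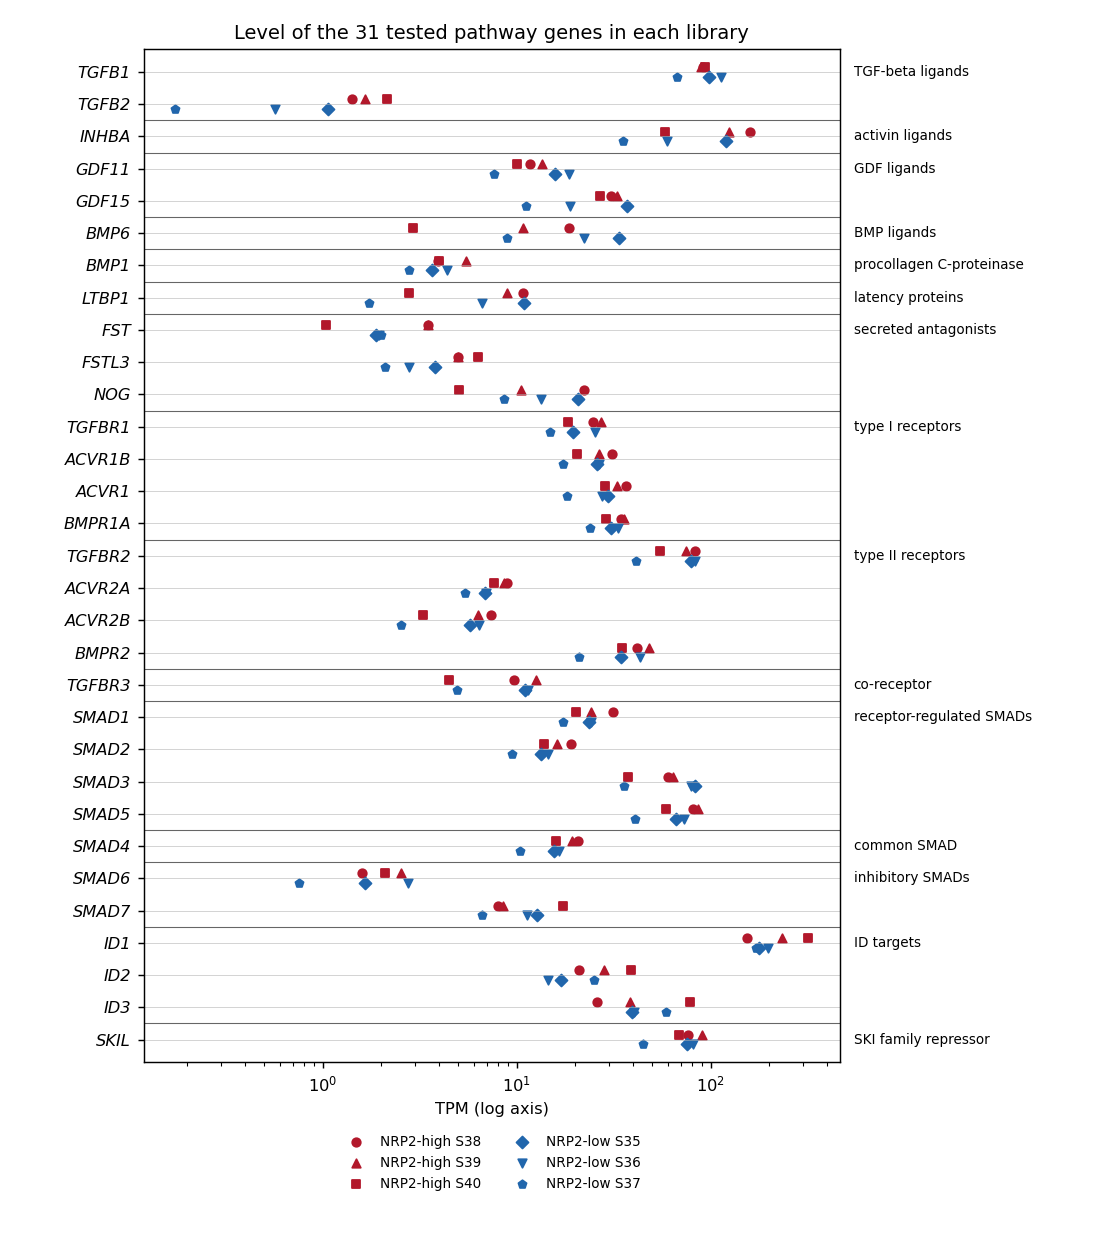
TPM of the 31 tested pathway genes is drawn on a log axis, 1 point per library, with NRP2-high libraries in red above NRP2-low libraries in blue, ordered by role. The point of S40 or S37 is the lowest of its group for most genes, and TGFB2, FSTL3 and ACVR2A have all red points right of all blue points.

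Among the SMADs that receptors phosphorylate, those of the BMP branch, SMAD1 and SMAD5, and those of the TGF-beta branch, SMAD2 and SMAD3, were all measured. SMAD5 was at 81.2, 86.4 and 58.7 TPM in the NRP2-high libraries, against 66.0, 72.8 and 40.8 TPM in the NRP2-low libraries (log2 fold change 0.35, SE 0.25, 95% interval -0.22 to 0.92, limma adjusted p = 0.881), and its difference was 0.10 without S37. SMAD1 was at 31.6, 24.1 and 20.3 TPM in the NRP2-high libraries, against 23.6, 24.3 and 17.4 TPM in the NRP2-low libraries (log2 fold change 0.20, 95% interval -0.30 to 0.70, and 0.036 without S38). For both genes the groups overlapped, with S37 lowest.

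SMAD3, which binds DNA directly, was at 60.4, 63.7 and 37.5 TPM in the NRP2-high libraries, against 83.6, 79.5 and 35.7 TPM in the NRP2-low libraries. It was the only receptor-regulated SMAD with a log2 fold change below 0 (log2 fold change -0.24, SE 0.34, 95% interval -1.02 to 0.54, limma adjusted p = 0.916), which was -0.63 without S37 and 0.0009 without S40. SMAD2 was at 19.0, 16.1 and 13.9 TPM in the NRP2-high libraries, against 13.4, 14.5 and 9.42 TPM in the NRP2-low libraries (log2 fold change 0.38, SE 0.22, 95% interval -0.12 to 0.87, limma adjusted p = 0.864), and its difference was 0.20 without S37. S40 lay just below S36, so the groups overlapped by 1 pair of libraries. The table gives SMAD2 a length of 36366 bases, the longest of the members, which lowers its TPM relative to the other SMADs. SMAD4, the common partner, was at 20.7, 19.2 and 16.0 TPM in the NRP2-high libraries, against 15.7, 16.6 and 10.5 TPM in the NRP2-low libraries (log2 fold change 0.38, SE 0.22, 95% interval -0.11 to 0.88, limma adjusted p = 0.864), again with only S40 under S36, and its difference was 0.19 without S37.

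The inhibitory SMADs are induced by the pathway and turn it off. SMAD7, which targets TGF-beta receptors, was at 8.00, 8.53 and 17.3 TPM in the NRP2-high libraries, against 12.7, 11.3 and 6.66 TPM in the NRP2-low libraries. S40 was highest and S37 lowest (log2 fold change 0.09, SE 0.33, 95% interval -0.66 to 0.85, limma adjusted p = 0.969), and the log2 fold change was -0.23 without S40. SMAD6, which acts mainly on BMP receptors, was at 2.08 ± 0.474 TPM in NRP2-high libraries, against 1.72 ± 1.01 TPM in NRP2-low ones (SD, n = 3 each; log2 fold change 0.23, limma adjusted p = 0.913).

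The ID genes encode dominant-negative helix-loop-helix proteins and are direct targets of BMP-activated SMADs. ID1 was above 95.5% of all tested genes in mean TPM, at 155, 232 and 318 TPM in the NRP2-high libraries, against 177, 197 and 171 TPM in the NRP2-low libraries. Its NRP2-high libraries lay on both sides of the NRP2-low ones (log2 fold change 0.31, SE 0.25, 95% interval -0.26 to 0.88, limma adjusted p = 0.893), and its difference was 0.062 without S40 and 0.58 without S38. ID2 was at 21.1, 28.1 and 39.1 TPM in the NRP2-high libraries, against 17.0, 14.5 and 25.2 TPM in the NRP2-low libraries, with only S37 above S38 (log2 fold change 0.60, SE 0.27, 95% interval -0.02 to 1.23, limma adjusted p = 0.733). Its difference was 0.38 without S40 and 0.82 without S37. ID3 was at 26.0, 38.4 and 77.9 TPM in the NRP2-high libraries, against 39.4, 40.3 and 59.0 TPM in the NRP2-low libraries, with S38 the lowest and S40 the highest of all libraries (log2 fold change -0.09, SE 0.36, 95% interval -0.91 to 0.74, limma adjusted p = 0.977), and the sign of its difference turned without S38 (0.26) or S37 (0.099).

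SKIL, also called SnoN, a repressor of SMAD complexes that TGF-beta first degrades and then induces, was at 76.6, 90.8 and 68.5 TPM in the NRP2-high libraries, against 75.4, 81.1 and 44.8 TPM in the NRP2-low libraries. The groups overlapped (log2 fold change 0.26, SE 0.24, 95% interval -0.29 to 0.81, limma adjusted p = 0.895), and without S37 the log2 fold change was -0.0016.

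Other genes of the pathway were taken from a list by role. The list was made with earlier results of these data known, so its counts are description only. It gave 97 genes in the table and 62 tested. Of these 1 rose, FN1, and 0 fell at a limma adjusted p under 0.05, beside 0.348% and 0.486% of all tested genes. The median log2 fold change was 0.19, beside 0.10 over all genes. In 11 of the 62 every NRP2-high library lay above every NRP2-low library and in 3 every one lay below, beside 8.83% and 3.14% of all tested genes. FN1, fibronectin, a matrix gene that TGF-beta induces in many cells, was at 129, 137 and 74.7 TPM in the NRP2-high libraries, against 6.80, 8.29 and 5.18 TPM in the NRP2-low libraries (log2 fold change 3.85, SE 0.27, limma adjusted p = 0.000299).

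The list of TGF-beta and activin target genes had 17 tested members, 1 called higher and 0 lower, with a median log2 fold change of 0.51. Its most abundant genes were CTGF, a matricellular protein, VIM and BHLHE40, a helix-loop-helix repressor. CTGF was at 1827, 1009.8 and 849.7 TPM in the NRP2-high libraries, against 1401, 416 and 455 TPM in the NRP2-low libraries (log2 fold change 0.85, SE 0.47, 95% interval -0.22 to 1.92, limma adjusted p = 0.851). BHLHE40 was at 371, 304 and 241 TPM in the NRP2-high libraries, against 326, 242 and 132 TPM in the NRP2-low libraries (log2 fold change 0.46, limma adjusted p = 0.876). VIM, vimentin, an intermediate filament protein of mesenchymal cells, was at 1358, 1160.5 and 768 TPM in the NRP2-high libraries, against 1014, 944 and 442 TPM in the NRP2-low libraries (log2 fold change 0.51, limma adjusted p = 0.874). The groups of all 3 overlapped. CDH2, N-cadherin, CDKN2B, the p15 inhibitor of the cell cycle and a classical TGF-beta target, and TGFBI, a secreted matrix protein, were chosen after their values were seen. With FN1 they were the pathway genes that limma-voom called. CDH2 was at 90.9, 95.5 and 62.3 TPM in the NRP2-high libraries, against 38.5, 41.0 and 24.2 TPM in the NRP2-low libraries (log2 fold change 1.25, SE 0.25, 95% interval 0.68 to 1.82, limma adjusted p = 0.0816), and in limma-voom its adjusted p was 0.0162. CDKN2B was at 21.0, 16.1 and 8.98 TPM in the NRP2-high libraries, against 4.98, 4.69 and 2.43 TPM in the NRP2-low libraries (log2 fold change 1.67, SE 0.34, 95% interval 0.90 to 2.44, limma adjusted p = 0.0869), and in limma-voom its adjusted p was 0.0395. TGFBI was at 0.515, 0.559 and 0.604 TPM in the NRP2-high libraries, against 1.92, 1.47 and 1.10 TPM in the NRP2-low libraries (log2 fold change -0.67, SE 0.26, 95% interval -1.26 to -0.08, limma adjusted p = 0.611), on 75 reads in NRP2-high libraries, against 232 in NRP2-low ones, with a limma-voom adjusted p of 0.0404. All NRP2-high values of CDH2 and CDKN2B lay above and all of TGFBI below the NRP2-low values. ANGPTL4, also on this list and chosen after its values were seen, had the lowest log2 fold change of the 17. It was at 10.7, 14.2 and 6.75 TPM in the NRP2-high libraries, against 31.7, 51.4 and 15.1 TPM in the NRP2-low libraries. The groups of ANGPTL4 did not overlap (log2 fold change -1.44, SE 0.42, 95% interval -2.40 to -0.49, limma adjusted p = 0.342). Of the 17 genes 11 had log2 fold changes above 0.

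The 7 tested latency proteins and activators outside the members all had log2 fold changes above 0, beside 66.3% of all tested genes, with a median of 0.58, and none passed. Under median log ratio scaling LTBP4 was at -0.054. With a library left out the lowest log2 fold change was -0.11 for LTBP4 and -0.073 for ITGAV. ITGAV, the integrin subunit that helps to release TGF-beta from latency, was at 152, 169 and 117 TPM in the NRP2-high libraries, against 148, 156 and 99.2 TPM in the NRP2-low libraries (log2 fold change 0.13). LTBP2, a relative of LTBP1 that does not bind latent TGF-beta, was at 83.4, 82.6 and 75.6 TPM in the NRP2-high libraries, against 56.3, 64.5 and 41.9 TPM in the NRP2-low libraries (log2 fold change 0.58, SE 0.19, 95% interval 0.15 to 1.01, limma adjusted p = 0.439). All its NRP2-high values lay above the NRP2-low values. THBS1, thrombospondin-1, an activator of latent TGF-beta, was at 52.7, 116 and 393 TPM in the NRP2-high libraries, against 28.1, 43.3 and 33.7 TPM in the NRP2-low libraries (log2 fold change 1.93, limma adjusted p = 0.409), with S40 far above the rest and a log2 fold change of 1.16 without it. ITGB8, the partner of ITGAV in an integrin that activates TGF-beta and a gene chosen after its values were seen, was at 4.84, 6.82 and 7.83 TPM in the NRP2-high libraries, against 1.98, 2.85 and 0.745 TPM in the NRP2-low libraries (log2 fold change 1.44, SE 0.33, 95% interval 0.70 to 2.19, limma adjusted p = 0.143), with no overlap between the groups.

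Of 24 tested SMAD regulators and other SMADs 0 passed, and the median log2 fold change was 0.15. The most abundant were STRAP, a TGF-beta receptor-binding protein, at 460.1, 437 and 420.0 TPM in the NRP2-high libraries, against 446, 459.7 and 359 TPM in the NRP2-low libraries, SMURF2, a ubiquitin ligase for SMADs and receptors, at 312, 226 and 178 TPM in the NRP2-high libraries, against 292, 251 and 175 TPM in the NRP2-low libraries, and TAB2, an adaptor of the kinase TAK1, at 139.8, 119 and 91.5 TPM in the NRP2-high libraries, against 113, 112 and 66.0 TPM in the NRP2-low libraries. Their log2 fold changes were 0.07, -0.01 and 0.28. SMAD9, the remaining BMP-branch SMAD, was chosen after its values were seen. It was at 2.78, 2.42 and 1.05 TPM in the NRP2-high libraries, against 0.358, 0.329 and 0.0313 TPM in the NRP2-low libraries, on 200 reads in NRP2-high libraries, against 28 in NRP2-low ones, with no overlap (log2 fold change 1.28, SE 0.32, 95% interval 0.55 to 2.00, limma adjusted p = 0.205). In limma-voom its log2 fold change was 3.18, with an adjusted p of 0.0770.

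Among 7 tested BMP target genes 0 passed, with a median log2 fold change of 0.23. SNAI2 is on this list and on that of TGF-beta targets. MSX1, a homeobox gene, was at 9.49, 11.1 and 7.06 TPM in the NRP2-high libraries, against 12.9, 16.0 and 8.63 TPM in the NRP2-low libraries, and MSX2, its relative, at 9.99, 7.94 and 5.23 TPM in the NRP2-high libraries, against 7.44, 9.21 and 3.40 TPM in the NRP2-low libraries. GATA2, a zinc finger factor, was at 5.74, 5.88 and 3.72 TPM in the NRP2-high libraries, against 5.28, 6.76 and 2.90 TPM in the NRP2-low libraries. Log2 fold changes were -0.39, 0.23 and 0.07.

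The remaining ligands, receptors and antagonists also had 0 called genes. RGMB, a BMP co-receptor, was at 74.4, 47.1 and 36.1 TPM in the NRP2-high libraries, against 59.9, 46.4 and 31.8 TPM in the NRP2-low libraries (log2 fold change 0.17). ENG, endoglin, a TGF-beta and BMP co-receptor, was at 41.0, 41.1 and 41.9 TPM in the NRP2-high libraries, against 53.1, 54.2 and 42.6 TPM in the NRP2-low libraries (log2 fold change -0.26). NEO1, neogenin, a receptor for RGM proteins, was at 13.4, 14.3 and 6.61 TPM in the NRP2-high libraries, against 22.3, 21.8 and 10.6 TPM in the NRP2-low libraries (log2 fold change -0.62). All NRP2-high values of ENG lay below the NRP2-low values, and the groups of RGMB and NEO1 overlapped.

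Of the antagonists, TWSG1, a BMP-binding protein, was at 74.2, 80.6 and 52.8 TPM in the NRP2-high libraries, against 75.9, 72.8 and 51.5 TPM in the NRP2-low libraries (log2 fold change 0.05). NBL1, a DAN family BMP antagonist, was at 48.6, 46.6 and 41.2 TPM in the NRP2-high libraries, against 43.3, 47.7 and 29.9 TPM in the NRP2-low libraries (log2 fold change 0.19). FSTL1, a follistatin-related glycoprotein, was at 41.2, 37.3 and 26.9 TPM in the NRP2-high libraries, against 24.2, 21.6 and 13.3 TPM in the NRP2-low libraries, with no overlap (log2 fold change 0.82, SE 0.26, 95% interval 0.23 to 1.41, limma adjusted p = 0.415). The ligands above the filter were AMH, anti-Mullerian hormone, at 1.84, 3.38 and 6.10 TPM in the NRP2-high libraries, against 2.97, 3.18 and 7.21 TPM in the NRP2-low libraries, and BMP8B, a BMP of germ cells and brown fat, at 2.05, 2.38 and 1.59 TPM in the NRP2-high libraries, against 1.46, 1.31 and 0.706 TPM in the NRP2-low libraries. Their log2 fold changes were -0.21 and 0.48, and the groups of AMH overlapped while those of BMP8B did not.

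**Figure D5:**
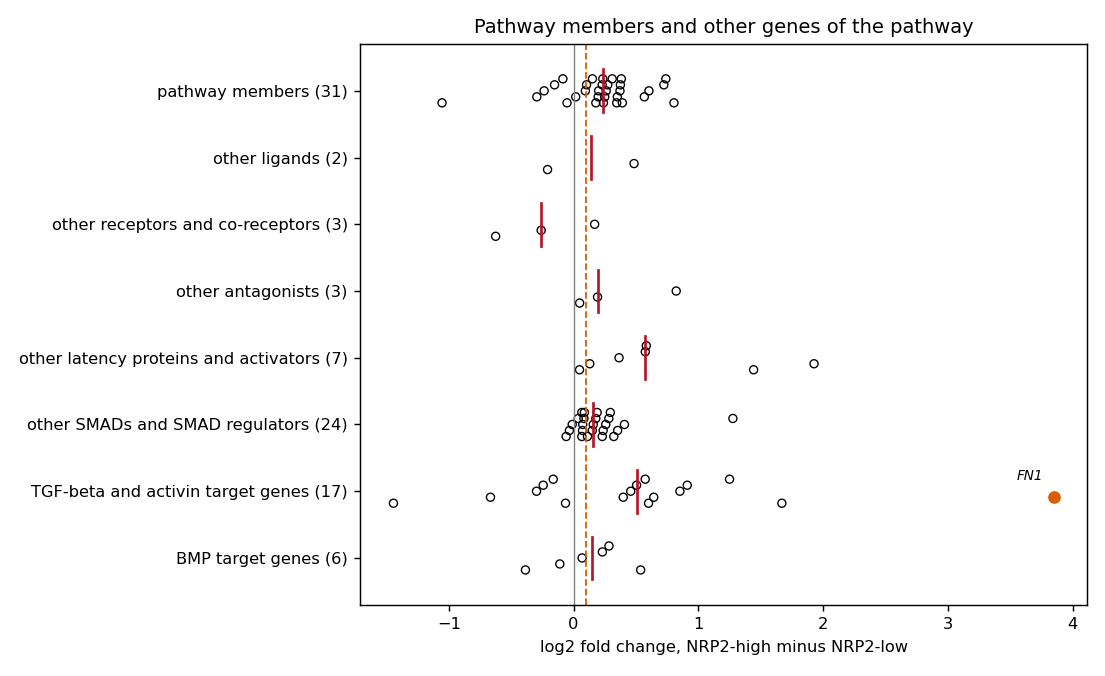
Log2 fold changes, NRP2-high minus NRP2-low, are drawn as open points for pathway members and for the other pathway genes by role, with the number tested in brackets, a red bar at each median and a dashed line at the median of all tested genes (0.10). FN1, the filled point at 3.85, is the only gene past the adjusted threshold, and SNAI2 is drawn under the first of its 2 lists.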

How the data were processed

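RNA of 6 PC3 libraries, 3 NRP2-high and 3 NRP2-low, was sequenced. The authors deposited 1 table of TPM values with gene length and position. Its build was hg38 (GRCh38.p12), and featureCounts 1.5.2 and DESeq2 1.20.0 are listed without a role, per the submitters' processing notes. The sources used here give no aligner, library kit or strand. All 27958 gene identifiers are in GENCODE release 29. Column names hold the word High or Low, which gave the group, and no replicate number. The labels do not say whether a group's libraries are separate sorts or cultures, so p-values cover the spread between these libraries alone, and that spread may be technical.

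TPM multiplied by length, divided by the smallest non-zero value of the library, gave whole numbers for 100.0% of non-zero values at a tolerance of 0.001, and these sums are the depths. Intervals and floors on reads cover counting error only. Genes with at least 1 TPM in at least 3 libraries were kept (15214). Limma 3.58.1 (R 4.3.3) was run on log2(TPM + 1) with a mean-variance trend, group as the only term, two-sided, adjusted by Benjamini-Hochberg over the 15214 genes, with a threshold of 0.05. Log2 fold changes on this scale understate changes of low genes. The test was tried on simulated reads first. Tables were read with Python 3.11.15 and pandas 2.3.3. Alternatives were a pseudocount of 0.1, no filter, a filter at 5 TPM, scaling by the median log ratio, TPM without mitochondrially encoded genes, no trend, limma-voom on recovered reads and leaving out each library.

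The members and lists were chosen with earlier results of these data known. Named with values in each library were members past the threshold or with a mean TPM of at least 5 in either group, and of the other pathway genes those past the threshold and the 3 most abundant tested genes per role. TGFB2, FST, BMP2, BMPR1B and, of the other genes, CDH2, CDKN2B, TGFBI, ANGPTL4, ITGB8, SMAD9 and GDF7 fell outside this rule and were picked after their values were seen. Some markers of the cell line are not reported here. Bulk RNA cannot tell fewer cells of a type from less RNA per cell.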

Additional observations from a re-analysis of the deposited data

How the results depend on the processing

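No paired analysis was possible because the table's columns carry no replicate numbers. By limma 0 members were called under each alternative run. Over all genes 127 were called, 74 without a filter, 69 with a filter at 5 TPM, 200 in limma-voom and 43 to 97 with a library left out. Among the other pathway genes 1 was called, and 2 after median log ratio scaling, 2 without mitochondrially encoded genes, 4 in limma-voom and 1 to 2 with a library left out. The members' median log2 fold change was 0.24, from 0.16 to 0.27 over the alternatives that kept all libraries and 0.0566 to 0.40 with a library left out. Signs turned for TGFB1 after median log ratio scaling (-0.088), without mitochondrially encoded genes (-0.072) and in limma-voom (-0.089), for TGFBR2 after median log ratio scaling (-0.0004) and in limma-voom (-0.0063), and for SMAD7 in limma-voom (-0.021). With a library left out log2 fold changes ran from -0.0395 to 0.31 for ACVR1B, -0.13 to 0.49 for ACVR2B, -0.51 to 0.0814 for GDF11, -0.51 to 0.26 for ID3, -0.33 to 0.78 for LTBP1, -0.78 to 0.18 for NOG, -0.0016 to 0.42 for SKIL, -0.63 to 0.0009 for SMAD3, -0.0490 to 0.50 for SMAD6, -0.23 to 0.28 for SMAD7, -0.19 to 0.17 for TGFB1, -0.22 to 0.28 for TGFBR2 and -0.40 to 0.33 for TGFBR3, turning sign in each. Members with NRP2-high libraries all above NRP2-low numbered 3 as deposited, 5 after either rescaling and 3 to 10 with a library left out, and those all below 0, 0 and 0 to 4, an alternative chosen after seeing the data. Of all tested genes 8.83% lay above and 3.14% below as deposited, and 7.62% and 6.03% after median log ratio scaling. For the other settings the share of all genes was not computed. With fewer libraries the groups part more readily for any gene, so those counts give no result about the members. The cause of the changes between settings was not tested. The 8 members under the filter had at most 155 reads with high NRP2 and 147 with low NRP2, both for LTBP3. Few reads limit the others. LTBP3, at 10298 bases, had more reads than FST, which was tested on 133 reads with high NRP2 and 111 with low NRP2. Gene length thus also decides which members pass a filter on TPM.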

Other observations

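Ratios of 2 genes within a library do not depend on its scaling. Of 9 ratios of pathway genes, chosen after their values were seen and given with no test, 3 had groups that did not overlap. The share among other pairs of genes was not computed, so this count gives no result about the pathway. TGFB2 to TGFB1 was 0.0155, 0.0185 and 0.0229 in NRP2-high libraries, against 0.0109, 0.00501 and 0.00258 in NRP2-low libraries. ID2 to ID3 was 0.812, 0.731 and 0.502 in NRP2-high libraries, against 0.432, 0.360 and 0.427 in NRP2-low libraries. BMP6 to NOG was 0.834, 1.01 and 0.577 in NRP2-high libraries, against 1.63, 1.67 and 1.03 in NRP2-low libraries. For SMAD2 to SMAD3 the values were 0.314, 0.252 and 0.369 in NRP2-high libraries, against 0.160, 0.182 and 0.264 in NRP2-low libraries, with S37 above S39. The ratios of ID2 to ID1, ID1 to ID3, INHBA to FST, INHBA to FSTL3 and TGFBR1 to TGFBR2 overlapped between the groups. GDF7, a BMP-like ligand of the nervous system, was read in S38 alone, with 8 reads, and had 0 reads in the other libraries.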
